A study of Mus musculus with 2 samples.

Results

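Mature Ccr7-positive dendritic cells (DCs) were taken from 2 droplet libraries of immune cells sorted from mouse tumors, as 143 of 2074 kept cells: 88 of 988 in the wildtype (WT) library and 55 of 1086 in the knockout (KO) library. A cell was a member if Fscn1, Ccl22 and Cacnb3 together had at least 3 UMIs (unique molecular identifiers, one per captured RNA molecule), Ccr7 had at least 1, and Cd3d, Cd3e and Cd3g together had at most 1. These 7 genes chose the cells and are no result. The members' median sum of Fscn1, Ccl22 and Cacnb3 was 35.5 UMIs in WT (range 4 to 194) and 45 in KO (range 3 to 202), and their median Ccr7 count was 29.5 and 21. Near the threshold, 3 WT members and 1 KO member had a sum of 3 to 5. A sum of 2 alone kept out 2 WT cells and 0 KO cells, a sum of 0 or 1 alone kept out 18 and 14, and lack of a Ccr7 UMI alone kept out 6 and 12.

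The WT mice were E8i-cre- with Tcf7 FL/FL alleles and the KO mice E8i-cre+ with Tcf7 FL/FL, so both groups carried floxed Tcf7 and only KO carried the Cre, which acts in mature CD8 T cells. All were female, their ages are not given in the sources used here, and each carried a B16Ova melanoma in the flank, started from 250000 cells and collected on day 13. From each of 3 tumors per group, sorting gave 4 categories at 2000 cells apiece, one of them a DC gate (CD11c+ MHCII+ CD24+/low, negative for CD64, B220, NK1.1 and Ly6G), and 7000 cells were loaded per channel. Each group is 1 library of pooled tumors whose animals cannot be told apart, so no statistical test was possible, and differences between groups are differences between 2 libraries.

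DCs that mature in a tissue switch on Ccr7, the receptor that guides them along lymphatics to the draining lymph node, and turn from sampling antigen to presenting it. In tumors such cells carry costimulatory and inhibitory ligands together, and they can stay in the tissue next to T cells. They can arise from both conventional lineages: cDC1s, which cross-present antigen to CD8 T cells, and cDC2s, which mainly serve CD4 T cells.

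The members' summed depth was 725012 UMIs in WT and 532160 in KO, with a median per cell of 7859 (range 1165 to 20607) and 9410 (range 734 to 27402). They were compared with cDC1s (95 WT and 101 KO cells, median 16746 and 16649 UMIs) and cDC2s (31 and 37 cells, median 13811 and 12886). The cDC1s were chosen by Xcr1 and Clec9a and the cDC2s by Cd209a, Clec10a and Mgl2. Both gates left out cycling cells and cells with more than 2 UMIs of Fscn1, Ccl22 and Cacnb3, which widens any difference in genes that go with those markers. Levels are counts per 1000000 UMIs (CPM) of a class, with UMIs summed over its cells. Intervals are exact 95% intervals that cover counting error only, not the spread between cells, animals or tumors. Those of differences between shares are wider than 95% intervals. The files of the libraries shared 1 barcode, and 0 kept cells. Tcf7, the targeted gene, stood at 156 CPM in WT and 58.5 CPM in KO CD8 T cells, and 115 UMIs of it were still counted there in KO. Which part of Tcf7 the Cre removes, and whether the counted reads lie in it, is not stated by the labels or files.

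Markers of other cell types were mostly low or absent in the members. The T cell list beyond the gate genes had 3 UMIs in each library, and the mast cell and basophil list had 0. The macrophage list differed between the libraries, with 65 UMIs (89.7 CPM) in WT and 6 (11.3 CPM) in KO, and it was at 0 in 75 of 88 and 50 of 55 members. The monocyte list stood at 604 CPM in WT and 492 CPM in KO, and the melanoma list at 31.7 and 20.7 CPM. The plasmacytoid DC list stood at 410 and 393 CPM, nearly all of it Bst2, an interferon-induced gene that other cells express too, while Siglech had 0 UMIs. The natural killer cell list stood at 152 and 62.0 CPM, nearly all of it Klrd1, with Ncr1, Gzma and Prf1 at 0. Some members also held UMIs of the cDC gates: Xcr1 or Clec9a was seen in 10 WT and 11 KO members, Cd209a, Clec10a or Mgl2 in 5 and 2, and none of these genes in 74 and 42.

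The measured genes of the NF-kB system, the transcription factors and regulators that drive DC maturation, were nearly all above cDC1s. A gene was called higher or lower than a DC class when it differed 2-fold or more the same way in both libraries, among genes with at least 50 CPM in one of the classes. In every list, a gene under 50 CPM in the other class entered only through the members and could not be called lower. Likewise, a gene under 50 CPM in members could not be called higher. Against cDC1s, 15 of 20 listed NF-kB genes were measured, of which 14 were called higher and 0 lower. Relb, Nfkb2, Map3k14 and Birc2 were under 50 CPM in cDC1s, so for them a lower call was not possible. Among all 2641 genes tested, 16.7% were called higher and 15.1% lower. The list's median log2 difference was 2.77 in WT and 2.73 in KO, and that of all genes tested was -0.13 and -0.21. Against cDC2s, 9 of 15 were called higher and 0 lower, beside 13.8% and 18% of 2717 genes, with list medians of 1.85 and 1.51 and all-gene medians of -0.18 and -0.23.

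Relb, a subunit of the non-canonical pathway (chromosome 7, 19606217 to 19629438, minus strand, GRCm38), was at 738 CPM in WT members and 716 in KO, 45.3 and 48.0 in cDC1s, and 101 and 56.5 in cDC2s. Its partner Nfkb2 was at 259 and 282 CPM in members, 28.9 and 38.4 in cDC1s, and 71.8 and 79.5 in cDC2s. Map3k14, the kinase that starts this pathway, was at 232 and 212 CPM, against 30.2 and 14.4 in cDC1s and 56.1 and 27.2 in cDC2s. All of the non-canonical genes named here were thus higher in members than in either class in both libraries. Rel, a canonical subunit, stood at 436 and 327 CPM in members and 53.2 and 43.2 in cDC1s. Nfkbia, which encodes the inhibitor that NF-kB itself induces, was at 1521 and 1167 CPM in members, 277 and 289 in cDC1s, and 543 and 444 in cDC2s. Traf1 and Birc2, which act in tumor necrosis factor receptor signalling, followed the same order. Traf1 was at 1177 and 1088 CPM in members against 81.4 and 84.1 in cDC1s. Birc2 was at 222 and 272 CPM in members and at most 12.6 CPM in either DC class. Nfkb1 and Bcl3 were below cDC2s in both libraries, at 88.3 and 92.1 CPM against 157 and 182, and at 197 and 141 CPM against 308 and 224. Those differences were under 2-fold.

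The NF-kB consensus was looked for in RefSeq promoter windows (GRCm38.p6), on both strands of the 250 bases before each gene's start. Windows of Rel, Nfkbia and Pdcd1lg2 are shown because these genes of the lists were above both DC classes or, for Pdcd1lg2, also differed between the libraries, and each holds a match. They are a choice: Nfkb2, also above both classes, has windows with matches that are not printed. The Rel window is chr11:23770970-23771219 on the minus strand, that of Nfkbia chr12:55492648-55492897 on the minus strand, and that of Pdcd1lg2 chr19:29410669-29410918 on the plus strand. Each is printed 5′ to 3′ along the gene's strand with the consensus match in capitals. In Rel, 2 overlapping matches make up the capitals.
Rel: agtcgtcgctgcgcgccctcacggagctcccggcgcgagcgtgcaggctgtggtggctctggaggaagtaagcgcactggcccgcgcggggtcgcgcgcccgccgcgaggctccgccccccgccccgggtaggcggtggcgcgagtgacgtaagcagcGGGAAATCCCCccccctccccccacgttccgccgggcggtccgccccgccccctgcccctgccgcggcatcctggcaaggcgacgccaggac
Nfkbia: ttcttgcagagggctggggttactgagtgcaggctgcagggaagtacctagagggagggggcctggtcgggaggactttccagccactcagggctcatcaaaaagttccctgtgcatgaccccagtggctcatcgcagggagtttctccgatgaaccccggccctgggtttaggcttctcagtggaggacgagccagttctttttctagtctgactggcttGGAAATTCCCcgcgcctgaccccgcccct
Pdcd1lg2: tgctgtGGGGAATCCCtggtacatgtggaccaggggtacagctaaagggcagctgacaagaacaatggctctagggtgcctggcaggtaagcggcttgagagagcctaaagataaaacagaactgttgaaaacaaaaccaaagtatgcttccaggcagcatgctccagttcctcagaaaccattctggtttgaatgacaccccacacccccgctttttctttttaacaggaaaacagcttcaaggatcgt
The match begins 92 bases before the start in Rel, 29 in Nfkbia and 244 in Pdcd1lg2. Of all 32851 windows, 3.90% held a match, and of genes tested against both DC classes with a window, 129 of 1913 (6.74%) did. Of the 315 genes called higher than both DC classes, 250 had a window and 33 of these (13.2%) a match. Of the 226 genes called lower than both, 165 had a window and 8 (4.85%) a match. The larger share therefore lay with the genes higher in members, and most of those genes had no match in this window. Of the 17 genes that ranked among the 12 farthest above cDC1s or above cDC2s, 12 had a window, and only Tmem176a had a match.

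The gene ranked first above cDC1s was a chemokine. Ccl5, a chemokine that draws T cells (chromosome 11, 83525778 to 83530518, minus strand), was at 13618 CPM in WT members and 11844 in KO, 1.97 and 2.40 in cDC1s, and 13.5 and 123 in cDC2s. The ratio to cDC1s was 6917 (95% interval 2366 to 33546) in WT and 4931 (1925 to 18103) in KO, where only 3 and 4 UMIs were seen in cDC1s. Ccl5 was found in 80 of 88 WT and 49 of 55 KO members. After thinning each cell to 2000 UMIs, which left out 5 WT and 3 KO members, the share with a UMI expected over random draws was 90.5% and 82.1% of members, 0.326% and 0.446% of cDC1s, and 57.6% and 53.2% of T cells, which express it. Most members of both libraries thus carried a gene that few cDC1s held.

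Il12b, which encodes the p40 subunit of interleukin 12 and interleukin 23 (chromosome 11, 44400063 to 44414033, plus strand), was at 294 CPM in WT members and 583 in KO, and had 0 UMIs in cDC1s and cDC2s of both libraries. Against a floor of 3 UMIs in the other class, it was at least 149-fold higher than in cDC1s in WT and at least 323-fold in KO. It was found in 34 of 88 and 20 of 55 members. In 1 draw thinned to 2000 UMIs, the share with a UMI was 24.1% (15.4 to 34.7) in WT and 25% (14 to 38.9) in KO. In T cells, whose median depths were 4314 and 4683 UMIs, it was 0 of 456 in WT, which allows up to 0.658% of cells with a UMI, and 1 of 494 in KO. One WT member held 25.8% and one KO member 37.7% of their library's Il12b UMIs, and 5 members held 59.2% and 81.3%. Il12a, the other chain of interleukin 12, had 0 UMIs in members of both libraries.

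Cxcl16, the ligand of Cxcr6 on T cells (chromosome 11, 70453983 to 70459984, minus strand), was at 745 CPM in WT members and 701 in KO, 78.1 and 52.8 in cDC1s, and 62.9 and 35.6 in cDC2s. It was found in 84 of 88 and 51 of 55 members. Thinned, the expected shares were 73.4% and 75.0%, against 14.2% and 8.73% of cDC1s and 0.999% and 0.575% of T cells. Il15, a growth factor of CD8 T cells, and Il15ra, the receptor that presents it, were higher than in both classes too. Il15 was at 91.0 and 90.2 CPM in members and 11.2 and 12 in cDC1s. Il15ra was at 134 and 164 CPM in members and 3.94 and 9.01 in cDC1s. Over the whole list, 7 of 10 chemokines and cytokines were called higher than cDC1s and 1 lower, with a median log2 difference of 4.12 in WT and 3.96 in KO. The shares of all genes were 16.7% and 15.1% against cDC1s, and 13.8% and 18% against cDC2s. Against cDC2s, 5 of 11 were higher and 2 lower, the latter being Ccl4 and Ccl9, which encode chemokines of inflammatory myeloid cells. Ccl9 was at 63.4 and 28.2 CPM in members and 370 and 140 in cDC2s.

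**Figure D1:**
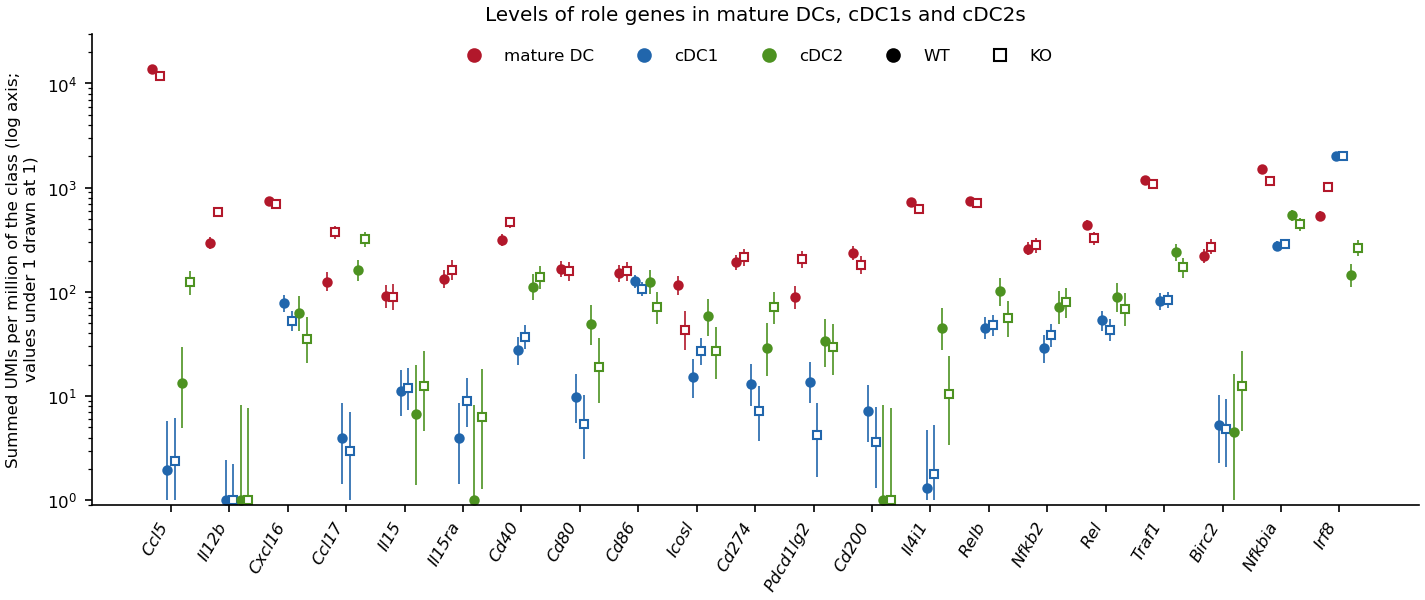
Levels in CPM (log axis, values under 1 drawn at 1) of selected genes in mature DCs (red), cDC1s (blue) and cDC2s (green) of the WT (filled) and KO (open) libraries, with bars for exact 95% Poisson intervals. Ccl5, Il12b, Cxcl16 and Relb lie above both conventional classes in both libraries.

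The costimulatory genes were split. Cd40, the receptor for T cell help, was at 314 CPM in WT members and 466 in KO, against 27.6 and 37.2 in cDC1s and 112 and 138 in cDC2s. Cd80 (chromosome 16, 38455561 to 38496335, plus strand) was at 167 and 158 CPM in members, 9.84 and 5.40 in cDC1s, and 49.4 and 18.8 in cDC2s. Cd86 (chromosome 16, 36603869 to 36666081, minus strand), the other ligand of Cd28, was at 152 and 158 CPM in members, 127 and 108 in cDC1s, and 126 and 71.2 in cDC2s. Of the pair of Cd28 ligands, Cd80 was thus above both classes by more than 2-fold in both libraries, and Cd86 above neither by that rule. Cd83, a marker of DC maturation, was at 1137 and 966 CPM in members against 299 and 159 in cDC1s. Icam1, the adhesion ligand of T cell integrins, was at 309 and 291 CPM in members and 71.5 and 74.5 in cDC1s. Cd48 was the 1 costimulatory gene called lower, at 64.8 and 75.2 CPM against 177 and 159 in cDC1s. In all, 4 of 6 measured genes were called higher and 1 lower than cDC1s, and also than cDC2s. The shares of all genes were 16.7% and 15.1% against cDC1s, and 13.8% and 18% against cDC2s.

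Inhibitory and regulatory genes were split as well, with 6 of 12 called higher and 4 lower than cDC1s, and 6 and 4 of 12 also against cDC2s. Among all genes the shares were 16.7% and 15.1% against cDC1s, and 13.8% and 18% against cDC2s. Cd274, which encodes PD-L1, was at 193 CPM in WT members and 216 in KO, 13.1 and 7.21 in cDC1s, and 29.2 and 71.2 in cDC2s. Cd200, a ligand that restrains myeloid cells, was at 239 and 182 CPM in members, 7.22 and 3.60 in cDC1s, and 0 in cDC2s. Il4i1, a secreted amino acid oxidase, was at 721 and 630 CPM in members and 1.31 and 1.80 in cDC1s. Socs2, a suppressor of cytokine signalling, was at 695 and 556 CPM in members and 0.656 and 3.00 in cDC1s. All 4 of these genes were thus more than 10-fold above cDC1s in both libraries. Socs3, Tgfb1, Lgals9 and Havcr2 were called lower than in cDC1s. Tgfb1 was at 62.1 and 86.4 CPM in members and 179 and 225 in cDC1s. Il10 had 0 UMIs in members.

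Receptor genes included some above and some below the DC classes. The receptor chains of T cell growth cytokines Il2ra, Il7r and Il21r were higher than in cDC1s, with Il7r at 252 CPM in WT members and 197 in KO and 0 and 0.601 in cDC1s. Il2ra was at 138 and 97.7 CPM against 0.656 and 0. Tnfrsf4, which encodes OX40, was at 234 and 380 CPM in members and at most 0.601 CPM in either DC class. Ifngr1, a chain of the interferon gamma receptor, was lower, at 89.7 and 41.3 CPM against 328 and 200 in cDC1s. Ccr2, the receptor by which monocyte-related cells leave the blood, was at 15.2 and 0 CPM in members, 215 and 215 in cDC1s, and 312 and 287 in cDC2s. Of 17 receptors measured against cDC1s, 10 were called higher and 2 lower, beside 16.7% and 15.1% of all genes. Receptors lower than in cDC1s were thus no more frequent than among all genes. Of 19 against cDC2s, 6 were higher and 5 lower, beside 13.8% and 18%.

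Transcription factors of the DC lineages were kept in part. Irf8, needed for cDC1 identity, was at 537 CPM in WT members and 1026 in KO, 2023 and 2014 in cDC1s, and 146 and 266 in cDC2s. Members therefore lay between the classes for Irf8. Batf3, its partner in cDC1s, was at 298 and 291 CPM in members, 261 and 280 in cDC1s, and 47.1 and 77.4 in cDC2s. Stat4, which carries interleukin 12 signals, was at 411 and 370 CPM in members and 5.91 and 0 in cDC1s. Etv3, Nr4a3, Bhlhe40 and Nfil3 were also called higher than in cDC1s, with Etv3 at 334 and 312 CPM in members against 32.2 and 21.0. In all, 10 of 17 were higher and 0 lower than cDC1s, beside 16.7% and 15.1% of all genes. Against cDC2s, 10 of 19 were higher and 3 lower, beside 13.8% and 18%.

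Genes of cell movement and shape were more often higher than lower. Of 25 measured, 15 were called higher and 3 lower than cDC1s, beside 16.7% and 15.1% of all genes. Of 26, 16 were higher and 4 lower than cDC2s, beside 13.8% and 18%. Marcksl1, an actin-binding protein, was at 1986 CPM in WT members and 1898 in KO, 24.3 and 50.4 in cDC1s, and 153 and 48.1 in cDC2s. Samsn1, an adaptor protein, was at 1029 and 821 CPM in members and 13.1 and 4.80 in cDC1s. Anxa3 was at 388 and 338 CPM in members and 0 and 0.601 in cDC1s. Tbc1d4, a regulator of vesicle traffic, was at 982 and 594 CPM in members and 66.3 and 54.0 in cDC1s. The integrin chains Itgb7, Itgb2 and Itgae were the genes lower than in cDC1s. Itgb7 was at 27.6 and 22.5 CPM in members, 239 and 204 in cDC1s, and 274 and 262 in cDC2s. Gene symbols of this list were chosen with mature DCs in mind, so its count is not independent of the cell type.

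The survival list had 6 of 9 measured genes called higher than cDC1s and 5 of 9 than cDC2s, with 0 lower. Of all genes, 16.7% and 13.8% were called higher. This list also holds genes that promote cell death, such as Bax and Bak1, so its count is not one of anti-apoptotic genes alone. Bcl2a1b, Bcl2a1d and Bcl2a1a, near-identical copies of an anti-apoptotic gene whose reads could be split among them, were at 1303, 956 and 491 CPM in WT members and 1329, 940 and 492 in KO. In cDC1s they were at 116, 183 and 90.6 CPM in WT and 124, 202 and 75.1 in KO. Bcl2l14, whose effect on survival was not measured here, was at 524 and 682 CPM in members and 6.73 and 10.5 in cDC2s. Pmaip1, which promotes cell death and so goes against the list's name, was also called higher than in cDC1s, at 302 and 276 CPM against 116 and 97.3. Cd63, a protein of late endosomes, was at 749 and 742 CPM in members and 8.53 and 2.40 in cDC1s. The serpins Serpinb9, which blocks granzyme B, and Serpinb6b were likewise higher. Serpinb9 was at 581 and 592 CPM in members and 8.53 and 19.2 in cDC1s, and Serpinb6b was at 1087 and 1605 CPM in members and 0 in cDC2s.

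Antigen presentation genes divided by class. For MHC class I, 9 of 19 genes were called higher and 2 lower than cDC1s, beside 16.7% and 15.1% of all genes. B2m, the shared light chain, was at 3611 CPM in WT members and 3728 in KO, 931 and 1001 in cDC1s, and 1302 and 1532 in cDC2s. H2-K1 was at 3088 and 2875 CPM in members and 874 and 940 in cDC1s. H2-Q genes and H2-K1 are close paralogs, and their reads may be shared between them. The genes lower were Calr and Pdia3, chaperones of the loading complex. For MHC class II, 4 of 16 genes were higher and 6 lower than cDC1s, and 1 higher and 6 lower than cDC2s. Of all genes, 13.8% were higher and 18% lower than cDC2s. The median log2 difference from cDC1s was -0.90 in WT and -0.40 in KO. H2-Ab1 was at 2239 and 2824 CPM in members, 8726 and 7481 in cDC1s, and 9374 and 8035 in cDC2s. H2-DMb1, which loads peptide onto class II, was at 106 and 154 CPM in members and 1210 and 1179 in cDC1s. March1, the ligase that removes class II from the surface, had 1 UMI in the members of each library and stood at 139 and 101 CPM in cDC1s. The genes higher than in cDC1s were H2-Eb2 and the endosomal processing genes Ctsh, Lgmn and Ifi30, with Ctsh at 766 and 517 CPM in members and 226 and 204 in cDC1s.

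Genes of lineage identity were mostly lower than in the class they mark, and genes of antigen uptake mostly lower than in both classes. Among all genes, 16.7% were higher and 15.1% lower than cDC1s, and 13.8% and 18% against cDC2s. Of 13 cDC1 identity genes outside the gate, 11 were called lower than cDC1s and 0 higher, with a median log2 difference of -4.74 in WT and -3.26 in KO. Naaa, a lysosomal hydrolase, was at 9.66 CPM in WT members, 67.6 in KO members, and 1302 and 1274 in cDC1s. Wdfy4, needed for cross-presentation, was at 5.52 and 33.8 CPM in members and 331 and 358 in cDC1s. Of 11 cDC2 identity genes outside the gate, 8 were lower than cDC2s and 0 higher. Sirpa, a marker of cDC2s, was at 30.3 and 13.2 CPM in members and 148 and 144 in cDC2s. Against the opposite class the identity lists were split. Of 6 cDC1 identity genes measured against cDC2s, 2 were higher and 1 lower, and of 6 cDC2 identity genes against cDC1s, 2 were higher and 3 lower. Of 5 uptake genes measured against cDC1s, 3 were lower and 1 higher. Of 9 uptake genes, 7 were lower than cDC2s and 1, Ly75, was higher. Ly75 encodes the endocytic receptor DEC-205 and was at 217 and 156 CPM in members, 19.7 and 28.8 in cDC1s, and 0 and 4.19 in cDC2s. Glycolysis genes were higher in 0 and lower in 2 of 10 against cDC1s, near the 15.1% of all genes, and lower in 5 of 13 against cDC2s, beside 18%, with Ldha at 381 and 438 CPM in members and 1452 and 1326 in cDC1s.

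**Figure D2:**
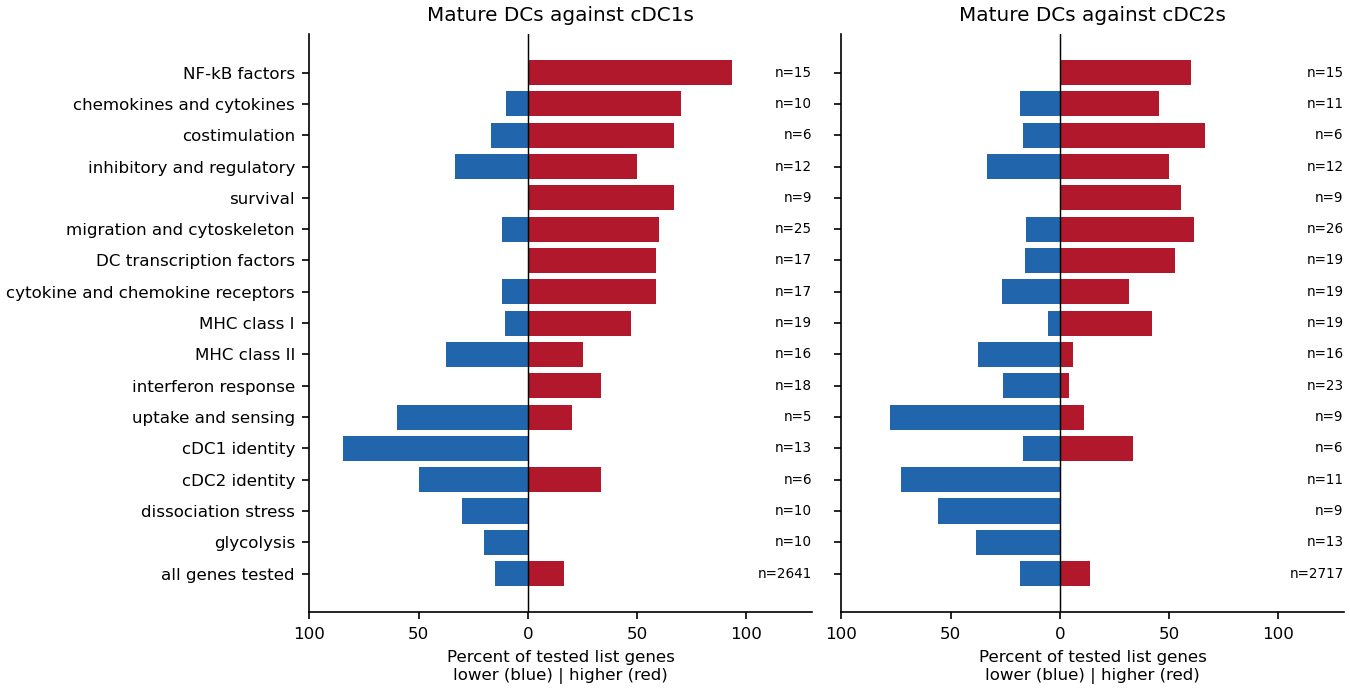
For each gene list, the percent of tested genes called higher (red, right) and lower (blue, left) in mature DCs than in cDC1s and cDC2s by the 2-fold rule, with the number tested and all genes tested in the bottom bar. The NF-kB and survival lists have bars only on the higher side in both panels, and the identity list of each class has one only on the lower side against that class.

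Interferon-induced genes lay partly above cDC1s and partly below cDC2s. Against cDC1s, 6 of 18 were called higher and 0 lower, and against cDC2s, 1 of 23 higher and 6 lower, with all-gene shares of 16.7% and 15.1%, and of 13.8% and 18%. Gbp5, a guanylate-binding protein of the interferon gamma response, was the gene higher than both, at 77.2 CPM in WT members and 143 in KO, 7.88 and 15.6 in cDC1s, and 13.5 and 44.0 in cDC2s. Ly6a, a surface protein induced by interferon, was at 399 and 427 CPM in members and 1226 and 1773 in cDC2s.

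By the ranking on the interval bound nearest 1, the genes farthest above cDC1s included Mreg and Fabp5. Mreg, which encodes melanoregulin, was at 448 CPM in WT members and 293 in KO, and had 0 UMIs in cDC1s and at most 1 in cDC2s. Fabp5, a carrier of fatty acids, was at 2761 and 2093 CPM in members, 9.19 and 10.2 in cDC1s, and 110 and 124 in cDC2s. Zmynd15 was at 390 and 312 CPM in members and at most 4.49 in either class. Gm13546, a non-coding antisense gene (chromosome 2, 58164001 to 58177063, plus strand), was at 410 and 312 CPM in members and at most 2.24 in either class. It lies within the span of Cytip, on the opposite strand (58129137 to 58195532, minus strand). The labels do not say whether counting used strand, so it is not settled here whether its counts include reads of Cytip. Alox5ap, which serves leukotriene synthesis, was among the genes farthest below cDC1s, at 60.7 and 132 CPM in members against 1510 and 1306.

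After 2 non-coding RNAs, Cd74 and Ccl5 ranked highest among members by the ratio of variance to mean. This ratio tends to rise with a gene's level, so the order is not one of spread relative to level. After thinning, the mean of Cd74 was 27.8 UMIs in WT and 35.2 in KO, and that of Cxcl10 0.205 and 0.769. Among 982 genes with a mean of at least 0.2 UMIs in each library after thinning to 2000 UMIs, the median ratio of variance to mean was 1.17 in both libraries. Malat1 and Gm42418, non-coding RNAs that follow nuclear and ribosomal RNA content, had the highest ratios, at 56.2 and 54.2 in WT and 73.8 and 86.4 in KO. For Cd74, the invariant chain of class II, the ratio was 35.5 in WT and 33.5 in KO, with counts from 1 to 122 (median 12) and from 2 to 110 (median 13.5). For Ccl5 it was 31.7 and 39.1, with a median of 18 UMIs in both libraries, a highest count of 161 and 160, and 8 of 83 and 10 of 52 cells at 0. H2-Ab1 was at 0 in 49 of 83 WT and 28 of 52 KO members and reached 29 and 25 UMIs in others. Cst3, H2-Eb1, H2-Aa, Cxcl10 and Isg15 were also among the 10 genes with the highest ratios. H2-Aa was at 0 in 15 of 83 WT and 2 of 52 KO members, and H2-Eb1 in 24 and 11. Counts of these 3 class II genes in thinned cells therefore ranged from 0 to high within each library, while Cd74 was at 0 in no member.

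Members were a smaller share of the KO library. They made up 8.91% of kept WT cells (95% Clopper-Pearson interval 7.20 to 10.9) and 5.06% of kept KO cells (3.84 to 6.54), a difference of -3.84 points (-7.02 to -0.663). Among members, cDC1s and cDC2s together, they were 41.1% (34.5 to 48.0) in WT and 28.5% (22.2 to 35.4) in KO, a difference of -12.6 points with an interval from -25.8 to 0.963. With cycling cells kept in the conventional classes, this difference was -12.8 points (-24.9 to -0.256). The shares follow from sorted categories pooled at fixed cell numbers, so they are not shares of the tumors' cells. Each interval of a difference joins opposite ends of the intervals of both shares, so it is wider than a 95% interval. By this wide interval the difference over kept cells was beyond counting error, and that among DCs was so with cycling cells kept. Without them the wide interval cannot place the difference within or beyond counting error. None of these differences has a replicate.

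Between the libraries, 167 of 2493 genes (6.7%) were 1.5-fold or more higher in KO members and 223 (8.95%) were 1.5-fold or more lower, with a median log2 ratio of -0.02. With scaling by the median of ratios, 211 were higher and 170 lower. Of 9 genes of the survival list, 0 were past 1.5-fold in either direction. Of 17 NF-kB genes, 0 were higher and 2 lower, namely Tnfaip3 and Nfkbiz, regulators of NF-kB itself. Tnfaip3 was at 81.4 CPM in WT and 35.7 in KO, a ratio of 0.439 (0.247 to 0.746). Ccl5 had a ratio of 0.870 (0.843 to 0.898), which was 1.11 (1.07 to 1.15) in members without a cDC1 or cDC2 gate UMI, and Cxcl16 of 0.941 (0.823 to 1.08). Cd80 and Cd86 had ratios of 0.946 (0.707 to 1.26) and 1.04 (0.774 to 1.39). For Cxcl16, Cd80 and Cd86 the intervals include 1 and leave out a 1.5-fold difference in either direction.

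The gene ranked first above 1.5-fold was Cxcl9, an interferon gamma induced chemokine for Cxcr3-bearing T cells (chromosome 5, 92321347 to 92328079, minus strand). It was at 31.7 CPM in WT members and 769 in KO, a ratio of 24.2 (15.9 to 38.7), and was found in 3 of 88 and 16 of 55 members. One KO member held 125 of the 409 KO UMIs. In 1 draw thinned to 2000 UMIs, 2.41% of WT and 23.1% of KO members had a UMI, a difference of 20.7 points (4.10 to 36.5). The shares in T cells were 0.658% and 1.82%. Cxcl9 was also higher in KO outside the members: it stood at 138 and 351 CPM in cDC1s, 231 and 881 in cDC2s, and 14.3 and 58.6 in T cells. The ratio in each of these classes was thus above 2-fold, and whether the members' ratio differs from theirs was not tested.

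Among other signals to T cells, Il12b had a ratio of 1.98 (1.66 to 2.37), with 117 of the 310 KO UMIs in 1 member. Without the top cell of each library it was 1.68 (1.35 to 2.09). Ccl17, a chemokine for Ccr4-bearing T cells, was at 125 CPM in WT members and 374 in KO, in 11 and 12 cells, a ratio of 2.98 (2.31 to 3.86). One WT member held 66 of the 91 WT UMIs of Ccl17 and one KO member 55 of 199, and without both cells the ratio was 7.92 (5.16 to 12.6). Pdcd1lg2, which encodes PD-L2, was at 89.7 CPM in WT and 207 in KO, in 35 and 30 cells, a ratio of 2.31 (1.68 to 3.18). Icosl, the ligand of ICOS on T cells, was at 116 CPM in WT and 43.2 in KO, in 31 and 14 cells, a ratio of 0.373 (0.224 to 0.598). Tnfsf9, the ligand of 4-1BB, was at 63.4 CPM in WT and 20.7 in KO, a ratio of 0.326 (0.152 to 0.639). Ebi3, which pairs with p28 in interleukin 27, was at 196 CPM in WT and 94.0 in KO, a ratio of 0.480 (0.340 to 0.667). Ligands of T cells therefore differed in both directions between the libraries.

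Interferon-induced genes were higher in KO members in sum, with a large part of the sum in few cells. Of 22 measured, 12 were higher in KO and 1 lower, beside 6.7% and 8.95% of all genes, with a median log2 ratio of 0.65. Isg15, a ubiquitin-like modifier, was at 946 CPM in WT and 1843 in KO, and Gbp2, a guanylate-binding protein, at 207 and 336. One KO member, the deepest at 27402 UMIs, held 32.4% of the list's UMIs in KO members. It had a sum of Fscn1, Ccl22 and Cacnb3 of 8, and it held 9 UMIs of Xcr1 and Clec9a. The deepest WT member, at 20607 UMIs, held 13.6% of the list's UMIs in WT. Without the deepest member of each library, 4 of 20 interferon genes were higher and 4 lower, with a median of 0.14. In that setting, 155 of all genes tested were higher in KO and 217 lower. The number tested changes with the members and is not given here, so the list's counts are not set against a share of all genes. Per cell the list's median was 15.4 UMIs per 10000 in WT members (quartiles 8.08 and 31.9) and 27.9 in KO members (12.7 and 56.0), so the ranges of the libraries overlapped.

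**Figure D3:**
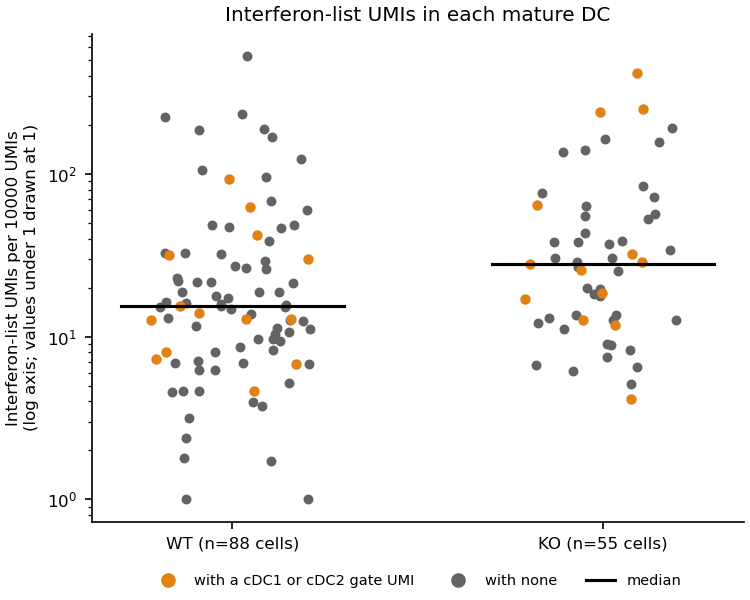
UMIs of the interferon list per 10000 UMIs in each member (log axis, values under 1 drawn at 1), by library, with the median as a line and members holding a UMI of a cDC1 or cDC2 gate gene in orange. The KO median of 27.9 lies above the WT median of 15.4, the libraries overlap over most of their range, and the highest KO member is one with a gate UMI.

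The members holding a cDC1 or cDC2 gate UMI had a large part in the sums, so every comparison between the libraries was repeated without them, a choice made after seeing the data. They were 14 WT members with 18.3% of the members' UMIs and 13 KO members with 36.5%, and they held 10.3% and 57.1% of the interferon list's UMIs. The remaining 74 WT and 42 KO members had 5165 and 4465 CPM of the interferon list, and 3 of 20 genes of it were higher in KO and 9 lower, with a median log2 ratio of -0.48. Of all genes tested in these members, 219 were higher in KO and 288 lower. The number tested in them is not given here either, so list counts in these members are not set against a share of all genes. The per-cell median of the interferon list in these members was 15.6 per 10000 in WT and 27.7 in KO. The sum and the median cell thus pointed in opposite directions. Of the 3058 list UMIs in the remaining WT members, 1 member held 625 and another 462. The WT sum thus leans in part on these cells, and the comparison was not repeated without both. Of the 7 cDC1 identity genes measured between the libraries, 6 were higher in KO in all members, beside 6.7% of all genes, with a median log2 ratio of 1.87. One of the 7 was Clec9a, a gene that chose the members left out and so was at 0 without them; of the other 6, 5 were higher in all members, with a median of 1.75. Without the members holding a gate UMI, 2 of 4 were higher and 1 lower, a count that the choice of members in part fixes. Naaa then had a log2 ratio of -0.78, against 2.81 in all members, on only 3 WT UMIs and 1 KO UMI. Ifi205 had a log2 ratio of -1.17, against 2.36. Cxcl10, Ckb and Ccl4 also changed sign. The ratio's intervals for Naaa (0.0111 to 7.27), Ckb (0.142 to 4.10) and Ccl4 (0.473 to 4.84) include 1, so their new sign is not settled. Those for Cxcl10 (0.283 to 0.680) and Ifi205 (0.229 to 0.813) leave out 1. They do not cover the spread between cells, so these signs are not settled either. Of the 112 WT UMIs of Cxcl10 in all members, 87 were in 1 cell. The remaining WT members kept 110 of these UMIs, that cell's among them, and the ratio without it is not given here. Of the 167 genes higher in KO, 79 stayed past the threshold, and of the 223 lower, 149 did.

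**Figure D4:**
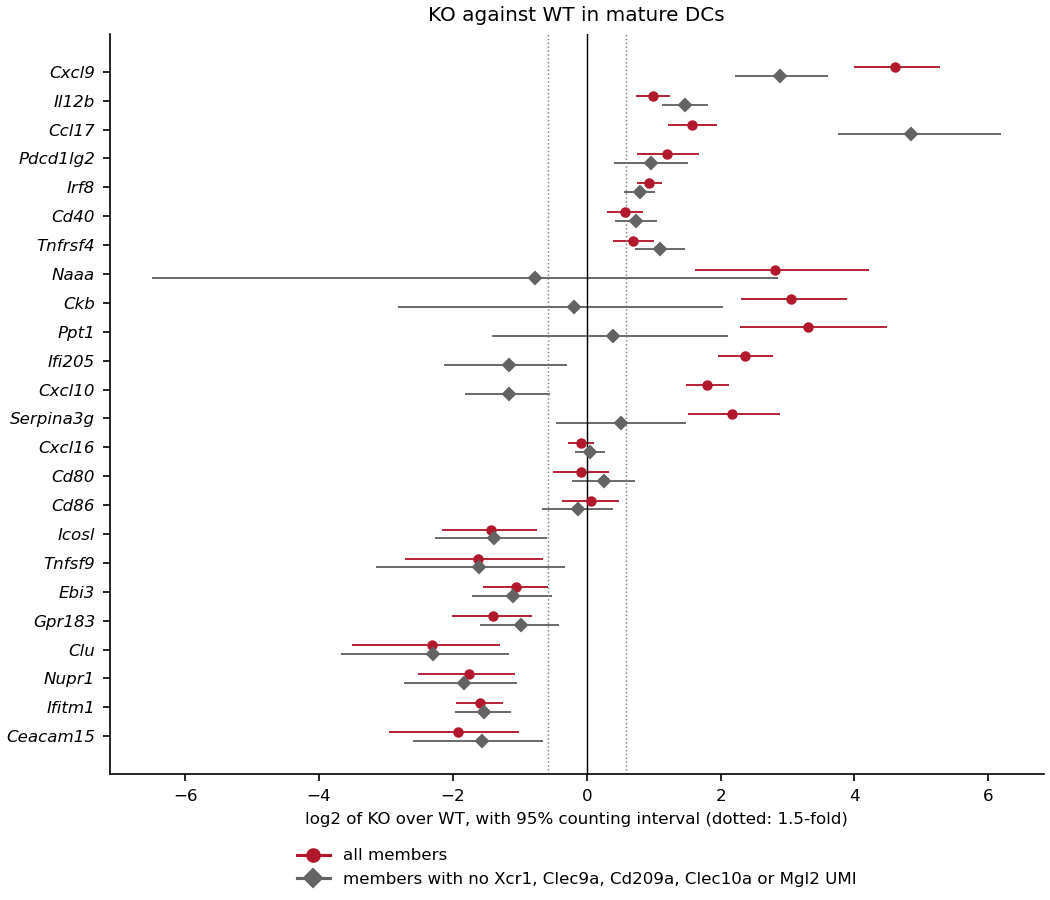
Log2 ratio of KO to WT in mature DCs for named genes, with exact 95% counting intervals and dotted lines at 1.5-fold, in all members (red circles) and in members with no cDC1 or cDC2 gate UMI (grey diamonds). Cxcl9, Ccl17 and Il12b lie above the dotted line and Icosl, Clu and Nupr1 below it in both sets, while Naaa, Ckb, Ifi205 and Cxcl10 change sides of 0. The grey intervals of Naaa and Ckb reach across 0.

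Several differences in ligands were kept in the remaining members. Cxcl9 was at 38.8 CPM in WT and 287 in KO, in 3 of 74 and 9 of 42 cells, a ratio of 7.39 (4.65 to 12.2). Il12b was at 201 and 556 CPM, a ratio of 2.77 (2.19 to 3.51), but 1 member held 117 of the 188 KO UMIs, and without the top cell of each library the ratio was 1.42 (1.02 to 1.95), under 1.5-fold. Pdcd1lg2 was at 91.2 and 178 CPM, a ratio of 1.95 (1.33 to 2.87). Irf8 had a ratio of 1.73 (1.47 to 2.03) and Icosl of 0.384 (0.209 to 0.666). Apart from Il12b, these also stayed past 1.5-fold without the top cell of each library. Ccl17 was at 11.8 and 340 CPM, a ratio of 28.8 (13.5 to 73.2), in only 6 and 7 cells.

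Among genes lower in KO members, Clu, a secreted chaperone, was at 84.1 CPM in WT and 16.9 in KO, in 14 and 6 cells, a ratio of 0.201 (0.0878 to 0.407). Nupr1, a stress-response regulator, was at 134 CPM in WT and 39.5 in KO, a ratio of 0.295 (0.175 to 0.476). Ceacam15, an adhesion family gene, was at 85.5 CPM in WT and 22.5 in KO, a ratio of 0.264 (0.129 to 0.494). These 3 genes stayed lower in the members without a gate UMI. Pltp, a lipid transfer protein made by macrophages among others, was at 108 CPM in WT and 13.2 in KO, but 62 of its 78 WT UMIs were in 1 cell. Ifitm1, an interferon-induced membrane protein, had a log2 ratio of -1.59, which became -0.22 among members with a marker sum of at least 6, and Ccl4 likewise went from -2.33 to -0.01. The macrophage list was higher in WT members too, as given above, and its part in these differences was not tested.

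Some immediate early and heat shock genes, which respond to tissue dissociation, were lower in members. Against cDC1s, 3 of 10 were called lower and 0 higher, beside 15.1% of all genes lower, and against cDC2s, 5 of 9 lower and 0 higher, beside 18%. Fos was at 128 CPM in WT members and 65.8 in KO, 1481 and 591 in cDC1s, and 505 and 398 in cDC2s. Between the libraries, 3 of 8 were lower in KO members, beside 8.95% of all genes, namely Fos, Jun and Ier2, with ratios of 0.513 (0.337 to 0.764), 0.593 (0.438 to 0.795) and 0.483 (0.302 to 0.752), and 0 were higher. The median log2 ratio of the list was -0.42. Fos was also lower in KO in cDC1s and cDC2s, and the part of handling in the differences between the libraries was not tested.

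Tcf7 itself was found at a low level in members of both libraries. It had 33 UMIs in 21 of 88 WT members (45.5 CPM) and 16 UMIs in 10 of 55 KO members (30.1 CPM), and 0 in cDC1s and cDC2s. Thinned to 2000 UMIs, the expected share with a UMI was 8.14% of WT and 7.70% of KO members, beside 27.5% and 23.1% of T cells, which express it. It was seen in 0 of 95 and 0 of 101 cDC1s, which allow up to 3.16% and 2.97% of cells with a UMI. The T cell list outside the gate had 3 UMIs in the members of each library. The KO to WT ratio was 0.661 (0.340 to 1.23) in all members, an interval that includes 1, and 0.934 (0.476 to 1.77) in those without a gate UMI.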

How the data were processed

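Both matrices hold raw UMI counts per gene and cell barcode as deposited by the authors, per the file headers and the whole-number values. The submitters' processing notes name Cell Ranger 1.3 and mm10, while the matrix header names 3.0.2; the files do not settle which made the counts. Members and gene lists were chosen with earlier results of these data known.

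A barcode was kept if it had 500 or more UMIs, 300 or more genes and no more than 10% mitochondrial UMIs, which held for 988 of 1120 in WT and 1086 of 1219 in KO. Gates used raw UMIs: cDC1s had at least 3 of Xcr1 and Clec9a together, cDC2s at least 3 of Cd209a, Clec10a and Mgl2, each with at most 1 of the other gate. Scrublet in scanpy 1.11.5, with an expected rate of 6%, called 5 WT barcodes (1 a member) and 3 KO barcodes (0 members), too few to have worked. Doublets were therefore not removed, and leaving these calls out was an alternative.

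UMIs were summed per library and class and scaled to counts per 1000000 (CPM). With 1 library per group no test was run: genes with at least 50 CPM in one of the sums compared were called past 1.5-fold between libraries and past 2-fold in both libraries between classes. Folds against 0 used a floor of 3 counts. CPM intervals are exact Poisson, ratio intervals conditional binomial and share intervals Clopper-Pearson. Intervals of differences between shares join opposite ends of the intervals of both shares. The contrast was tested on simulated data. Named genes were the 12 on each side against each DC class and the 10 on each side between libraries. These were the genes whose interval bound nearest 1 was farthest from it. Also named were members of the lists and the 10 genes with the highest ratio of variance to mean. Gate, receptor segment, ribosomal, mitochondrial and haemoglobin genes were left out of the ranking, and between libraries also markers of other cell types. Of 421 listed genes, 415 were in the matrices. Of 27998 gene IDs, 27722 (99.0%) were found in GENCODE vM21 (GRCm38, the assembly of mm10). Promoter windows are RefSeq's (GRCm38.p6). Of 1000 windows checked, 776 had their first transcribed bases in a transcript of that gene as written and 0 as the reverse complement. Software was Python 3.11.15, NumPy 2.4.6, SciPy 1.17.1 and pandas 2.3.3.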

Additional observations from a re-analysis of the deposited data

Results flagged for a closer look

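Some genes had a ratio of KO to WT in mature DCs that pointed opposite to that in a conventional DC class. In each case the difference between the classes was not tested, since each group is 1 library.

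Nupr1, a stress-response regulator, had a log2 ratio of -1.76 in mature DCs (134 CPM in WT and 39.5 in KO) and 1.78 in cDC1s (5.25 and 18.0 CPM). Icosl, the ligand of ICOS, had a log2 ratio of -1.42 in mature DCs (116 and 43.2 CPM) and 0.84 in cDC1s (15.1 and 27.0 CPM). Pdcd1lg2, which encodes PD-L2, had a log2 ratio of 1.21 in mature DCs (89.7 and 207 CPM) and -1.71 in cDC1s (13.8 and 4.2 CPM). For these genes the cDC1 levels were low in both libraries. Cd24a, an adhesion protein that the DC sort gate used, had a log2 ratio of 1.14 in mature DCs (53.8 and 118 CPM) and -1.50 in cDC2s (290 and 103 CPM). Rtp4, an interferon-induced gene, had a log2 ratio of -0.81 in mature DCs (75.9 and 43.2 CPM) and 1.02 in cDC2s (182 and 368 CPM).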

How the results depend on the processing

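Most values of named genes kept their direction and their side of the fold threshold. Of 672 values of named genes against cDC1s under the alternatives, 672 did so, and against cDC2s 669 of 672; the others were Cd86 in KO, at log2 0.96, 0.96 and 0.97 without members holding other cell types' genes, the deepest members or members with a cDC gate UMI. Of 292 values between libraries, 275 did so, 12 crossed the threshold and 5 changed sign. The 200 CPM filter and the lack of a filter leave a gene's value unchanged, so their part of these tallies was fixed in advance. Most named genes were also picked as farthest from 1 in these data, which leaves few of them near a threshold. The sign changes all came from leaving out members with a cDC gate UMI, an alternative chosen after seeing the data: log2 0.62 for Ccl4, -0.19 for Ckb, -1.17 for Cxcl10, -1.17 for Ifi205 and -0.78 for Naaa. For Ccl4, Ckb and Naaa the interval of the ratio then included 1. For Cxcl10 and Ifi205 it left out 1, but it does not cover the spread between cells. The filter on low genes set the counts of calls. Against cDC1s, 156 genes were higher and 94 lower with a 200 CPM filter, and 1204 and 1201 with none. Against cDC2s they were 138 and 132, and 756 and 1334. Between libraries they were 39 and 18, and 1343 and 1971. Weighting each cell equally gave 296 genes higher in KO and 281 lower, and only 109 of the 167 genes higher and 140 of the 223 lower stayed past the threshold. Without members holding other cell types' genes, 113 and 159 of them stayed. Scaling by the median of ratios shifted log2 values by 0.07 between libraries, 0.01 and 0.16 against cDC1s (WT and KO) and 0.17 and 0.18 against cDC2s, and 167 of the 167 genes higher in KO and 170 of the 223 lower stayed past the threshold. The difference in the members' share of kept cells ran from -4.39 to -3.63 points over its alternatives. Depth limits genes with few UMIs: 3 counts are 4.14 CPM in WT members and 5.64 in KO. No paired analysis was possible because each group has 1 library and the values come from no test.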
